A study of Mus musculus with 35 samples.

Results

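The p53 tumour suppressor's target genes and the regulators of apoptosis were followed in mouse paw skin after paclitaxel (PTX), the microtubule-stabilising chemotherapy drug. The 10 genes were chosen by name: Cdkn1a, Mdm2, Ccng1, Bax, Bbc3, Phlda3, Gadd45a, Casp8, Bmf and Mcl1. All 10 were found among the 22609 gene symbols of the count tables, in all 35 libraries. Each library holds messenger RNA of cells sorted from paw skin, and PTX was compared with vehicle within each sort, 6 days after the last dose.

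The PTX groups were male mice given 2 intraperitoneal injections of 2 mg/kg. They gave 4 libraries of CD45-sorted immune cells from wild-type mice, 4 of tdTom-marked fibroblasts from Col1a2-cre-ER/tdTom mice and 4 of tdTom-marked keratinocytes from K5-cre-ER/tdTom mice. Vehicle males of the same genotypes gave 4, 4 and 3 libraries, and vehicle females gave 4 of each sort. All mice were of the C57 strain and 8 to 16 weeks old. No female received PTX, so vehicle males are the reference and vehicle females show the spread without drug. The fibroblast and keratinocyte sorts depend on where the Col1a2 and K5 Cre drivers were active, and the immune sort on CD45 alone. Nothing in the labels ties a library to 1 animal, and p-values therefore reflect the spread among libraries, which may be technical.

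As background, p53 is a transcription factor that DNA damage and other stresses stabilise. Its targets either stop the cell cycle (Cdkn1a, Gadd45a), feed back on p53 or on survival signalling (Mdm2, Ccng1, Phlda3), or open the mitochondrial path to death (Bax, Bbc3). That path is set by the BCL2 family, in which BH3-only proteins such as the products of Bbc3 and Bmf neutralise guardians such as MCL1 and so free BAX to permeabilise the outer membrane, whereas caspase 8 starts death from receptors at the cell surface. Paclitaxel acts on the mitotic spindle of dividing cells, and arrest in mitosis is known to lower MCL1 protein in cultured cells.

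The promoters of the genes that the results turn on are shown because p53 acts through a DNA element near or in its targets. RefSeq (GRCm38.p6) gave 15 start sites for the 10 genes, each as a window of 300 bases from 250 before the start to 50 after. Capitals mark exact matches to the p53 consensus decamer of 10 letters, which reads as the same consensus on both strands. The upstream start site of Cdkn1a, the 3 genes that passed the test in immune cells (Phlda3, Bmf and Casp8) and the classical targets Mdm2 and Ccng1 are given.
Cdkn1a, start site 1, chr17:29090729-29091028, plus strand: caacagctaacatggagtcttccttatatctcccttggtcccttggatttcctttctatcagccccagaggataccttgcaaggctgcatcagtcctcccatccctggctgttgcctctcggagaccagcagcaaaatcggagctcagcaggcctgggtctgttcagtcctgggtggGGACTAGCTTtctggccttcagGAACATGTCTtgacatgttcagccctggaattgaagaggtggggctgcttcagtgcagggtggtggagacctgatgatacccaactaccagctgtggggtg
Mdm2, start site 1, chr10:117710709-117711008, minus strand: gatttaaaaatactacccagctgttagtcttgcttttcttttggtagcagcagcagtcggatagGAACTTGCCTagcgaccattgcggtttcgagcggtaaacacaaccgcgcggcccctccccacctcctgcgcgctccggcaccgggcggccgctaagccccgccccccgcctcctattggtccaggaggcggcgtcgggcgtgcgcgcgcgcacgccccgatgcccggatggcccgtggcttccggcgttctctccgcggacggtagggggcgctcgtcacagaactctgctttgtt
Ccng1, start site 1, chr11:40755237-40755536, minus strand: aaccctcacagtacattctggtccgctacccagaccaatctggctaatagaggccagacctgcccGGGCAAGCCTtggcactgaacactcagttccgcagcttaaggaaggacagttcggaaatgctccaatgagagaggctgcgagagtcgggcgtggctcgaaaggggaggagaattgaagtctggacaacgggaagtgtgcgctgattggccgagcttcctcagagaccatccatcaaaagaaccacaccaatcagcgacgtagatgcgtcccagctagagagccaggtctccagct
Phlda3, start site 1, chr1:135765835-135766134, plus strand: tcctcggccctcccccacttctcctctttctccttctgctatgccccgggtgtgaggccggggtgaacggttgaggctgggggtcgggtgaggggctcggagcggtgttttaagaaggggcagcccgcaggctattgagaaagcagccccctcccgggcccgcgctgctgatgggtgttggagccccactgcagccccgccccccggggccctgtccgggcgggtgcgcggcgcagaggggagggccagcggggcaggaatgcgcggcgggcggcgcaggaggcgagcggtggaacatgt
Bmf, start site 1, chr2:118544538-118544837, minus strand: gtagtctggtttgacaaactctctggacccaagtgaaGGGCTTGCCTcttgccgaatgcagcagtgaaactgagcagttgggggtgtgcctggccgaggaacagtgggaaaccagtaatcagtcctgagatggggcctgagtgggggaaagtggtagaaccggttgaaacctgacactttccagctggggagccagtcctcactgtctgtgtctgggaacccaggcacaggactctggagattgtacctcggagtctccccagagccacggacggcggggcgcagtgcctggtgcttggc
Casp8, start site 1, chr1:58802252-58802551, plus strand: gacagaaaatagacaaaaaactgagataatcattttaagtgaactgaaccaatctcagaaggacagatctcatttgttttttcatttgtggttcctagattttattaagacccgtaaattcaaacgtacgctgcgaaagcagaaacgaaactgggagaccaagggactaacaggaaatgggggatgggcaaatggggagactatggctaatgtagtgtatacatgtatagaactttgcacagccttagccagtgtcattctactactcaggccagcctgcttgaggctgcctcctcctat
The upstream Cdkn1a window held a pair of decamers, GGACTAGCTT from base -73 and GAACATGTCT from base -51 relative to the start, within the longest spacer searched (13 bases). Of all 32851 promoter windows of this length, 24 (0.0731%) held such a pair. A single decamer was found in 6 of the 15 windows of these genes (40.0%), against 8.36% of all windows. They belonged to Cdkn1a, Mdm2 (GAACTTGCCT), Ccng1 (GGGCAAGCCT), Bax (AGGCAAGCTT), Gadd45a (GGGCTAGCCC) and Bmf (GGGCTTGCCT). No match stood in the windows of Phlda3, Casp8, Bbc3 or Mcl1, which says only that these letters are not in those 300 bases. A match is a description of the sequence, and several of these genes were listed here because they are known p53 targets.

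Total counts in genes ran from 13847475 to 18979776 in the immune sort, from 13359088 to 20809036 in the fibroblast sort and from 6518070 to 12055718 in the keratinocyte sort, apart from vehicle female 2 of that sort with 988712. The vehicle libraries of each sort were high in its defining markers. The vehicle male immune libraries also carried fibroblast markers at a like level, and markers of other cell types differed with PTX. In the keratinocyte sort 6 of 10 fibroblast, 6 of 8 endothelial, 2 of 8 pericyte and smooth muscle, 2 of 8 macrophage, 2 of 9 tested pan-immune and 1 of 3 tested skeletal muscle markers rose, and 4 of 8 basal and 3 of 5 tested suprabasal keratinocyte markers fell. Krt5 (the basal keratin) lay between 1193 and 4196 CPM (counts relative to library size, scaled by the trimmed mean of M-values within a sort) in PTX libraries of that sort, against 4748 to 8093 CPM in vehicle males. Col1a2, a collagen of fibroblasts, lay between 1441 and 3868 CPM in these PTX keratinocyte libraries, against 1.11 to 1.62 CPM in vehicle males. Ptprc, which encodes CD45, lay between 149 and 240.0 CPM there, against 0.464 to 0.789 CPM. In the immune sort 6 of 10 fibroblast, 5 of 8 endothelial, 4 of 8 pericyte and smooth muscle, 3 of 8 basal keratinocyte and 2 of 7 tested skeletal muscle markers fell, and 6 of 8 mast cell markers and 1 of 8 macrophage markers rose. The 10 fibroblast markers summed to 243 to 1454 CPM in PTX immune libraries, 4648 to 10312 CPM in vehicle males and 90.8 to 428 CPM in vehicle females, so the vehicle males stood apart. The 10 pan-immune markers summed to 5164 to 8665 CPM in vehicle males, a range that overlapped their fibroblast sums. The pan-immune sums were 8398 to 14372 CPM with PTX and 8046 to 9187 CPM in vehicle females. The endothelial markers summed to 0.341 to 41.0 CPM with PTX, 111 to 608 CPM in vehicle males and 52.5 to 130.0 CPM in vehicle females, and the pericyte and smooth muscle markers to 3.09 to 42.5 CPM with PTX, 404 to 2408 CPM in vehicle males and 159 to 747 CPM in vehicle females. For both of these lists the PTX libraries lay below every vehicle library. The mast cell markers summed to 2880 to 8617 CPM with PTX, 1520 to 2622 CPM in vehicle males and 5864 to 7714 CPM in vehicle females. The PTX immune libraries also had fewer genes with over 10 counts, 5956 to 8700, against 11000 to 12813 in vehicle males and 10974 to 11036 in vehicle females. In the fibroblast sort 1 of 10 fibroblast markers fell, where 0.0184% of all genes were called. Of the 10, 5 had an unadjusted p under 0.05, beside 8.07% of all genes (edgeR). Their median log2 fold change was -0.48 and none was above 0. Their sums were 33664.5 to 51501 CPM with PTX, 52011 to 76783.5 CPM in vehicle males and 54645 to 61182 CPM in vehicle females. Those PTX libraries too lay below every vehicle library. These values stand beside the results below, and their part in them was not tested. In bulk RNA, fewer cells of a type and less RNA per cell cannot be told apart.

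**Figure D1:**
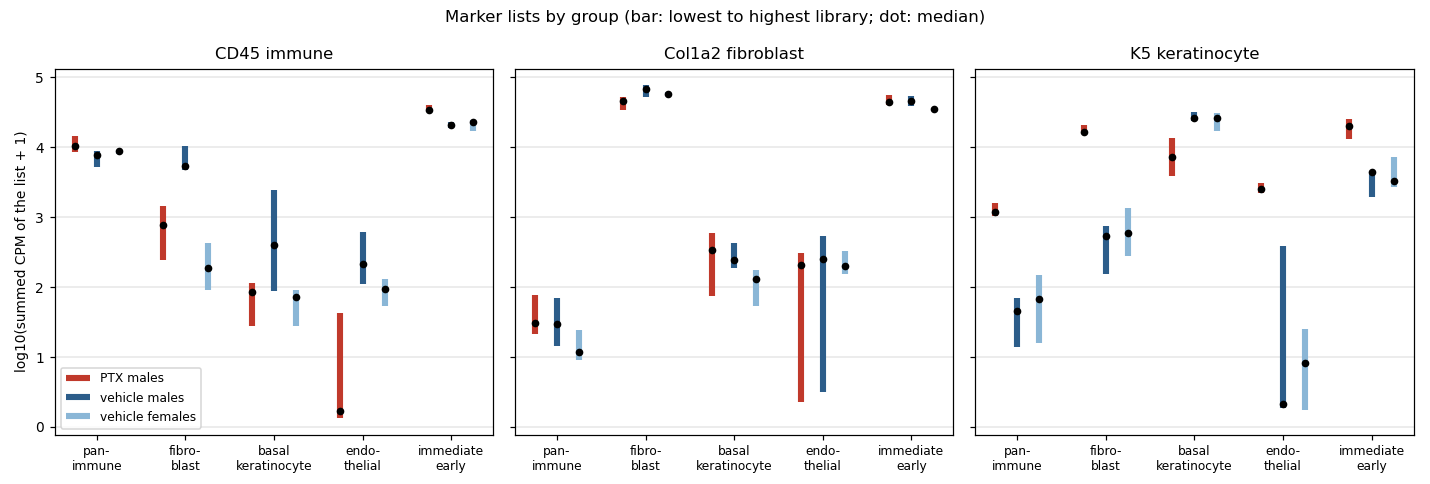
Summed level of marker lists, as log10(summed CPM + 1), in PTX males, vehicle males and vehicle females of each sort; bars run from the lowest to the highest library and dots are medians. In the keratinocyte sort the PTX bars for immune, fibroblast and endothelial markers lie above both vehicle groups, and in the immune sort fibroblast markers are high in vehicle males.

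In immune cells, 3 of the 10 genes passed the test: Casp8 rose, and Phlda3 and Bmf fell. The test was edgeR's quasi-likelihood test with Benjamini-Hochberg adjustment over all 12131 tested genes at 0.05, by which 5.51% of all genes were called (0.956% higher and 4.56% lower). The 3 genes were also those at an unadjusted p under 0.05, beside 20.1% of all genes. Limma voom with sample weights called none of the 3 (adjusted p = 0.0597 for Casp8, 0.274 for Phlda3 and 0.413 for Bmf). In fibroblasts none of the 10 passed by the same test, where 0.0184% of all genes did. At an unadjusted p under 0.05 there were 3 (Cdkn1a, Mdm2 and Bmf), beside 8.07% of all genes; DESeq2 called 1 (Bmf) and limma voom 0. In keratinocytes none of the 9 tested genes passed, where 1.45% of all genes did. At an unadjusted p under 0.05 there were 2 (Cdkn1a and Bbc3), beside 14.8% of all genes; DESeq2 called 2 (Gadd45a and Bbc3) and limma voom 0. Bmf had too few reads there to be tested. The median log2 fold change of the tested genes among the 10 was 0.30 for the immune sort, -0.41 for the fibroblasts and 1.58 for the keratinocytes, beside 0.10, 0.08 and 0.07 over all tested genes.

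**Figure D2:**
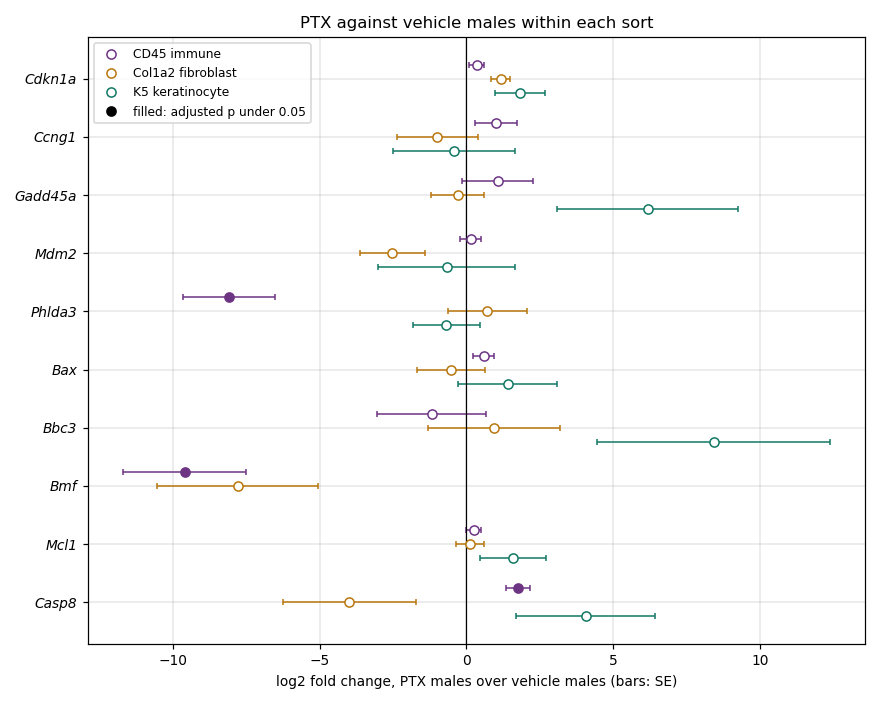
Log2 fold change of each gene, PTX males over vehicle males, in the 3 sorts, with bars of 1 SE; filled points passed an adjusted p of 0.05. The filled points are Casp8 at 1.76, Phlda3 at -8.09 and Bmf at -9.60, all in immune cells, and Cdkn1a and Mcl1 have positive values in each sort.

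Cdkn1a encodes p21, the inhibitor of cyclin-dependent kinases that carries much of the p53 cell cycle arrest. In keratinocytes it measured 476, 380, 314 and 574 CPM in the PTX libraries, against 83.5, 64.5 and 222 CPM in vehicle males. Vehicle females had 117, 64.9, 264 and 20.2 CPM. All 4 PTX libraries of the keratinocyte sort thus lay above all 7 vehicle libraries, as did 4.60% of all genes. The log2 fold change over vehicle males was 1.82 ± 0.86 (SE, n = 4 and 3), with an unadjusted p of 0.0485 and an adjusted p of 0.334 by edgeR, so it did not pass. The same PTX libraries carried more fibroblast, immune and endothelial markers. On a scale set over all 35 libraries, Cdkn1a averaged 97.2 CPM in vehicle keratinocytes, 576 CPM in vehicle fibroblasts and 1000 CPM in vehicle immune cells, and the part of those cells in the difference was not tested.

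In fibroblasts Cdkn1a measured 535, 1024, 1037 and 840 CPM in the PTX libraries, against 391, 281, 357 and 506 CPM in vehicle males. Vehicle females had 672, 452, 530 and 710 CPM and overlapped both groups. PTX and vehicle males did not overlap, as for 1.38% of all genes in this direction, but PTX library 1 lay below 2 of the vehicle females. The log2 fold change was 1.16 ± 0.31 (SE, n = 4 each), with an unadjusted p of 0.00144 and an adjusted p of 0.445 by edgeR. Over 8 alternatives it ran from 0.54 to 1.39, and none called it. Vehicle females exceeded vehicle males by 0.62 ± 0.31 on the log2 scale (unadjusted p = 0.0572, edgeR). The marker of the sort itself, Col1a2, averaged 3881 ± 1405 CPM in PTX and 9007 ± 2320 CPM in vehicle males (SD, n = 4 each), so the means of Cdkn1a and of the collagen differed in opposite directions. All 8 pericyte and smooth muscle markers had fold changes above 0 in this sort (median 1.99; none called, 2 at an unadjusted p under 0.05), and their sum lay between 188 and 3360 CPM with PTX, against 90.4 to 449 CPM in vehicle males and 409 to 972 CPM in vehicle females. Their part in the Cdkn1a difference was not tested.

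In immune cells Cdkn1a measured 1479, 1054, 1486 and 1020 CPM in the PTX libraries, against 780, 1197, 789 and 1193 CPM in vehicle males. Vehicle females had 1040, 941, 1430 and 647 CPM, and all 3 groups overlapped. The log2 fold change was 0.35 ± 0.25 (SE, n = 4 each; adjusted p = 0.603, edgeR).

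The mean of Cdkn1a was thus higher with PTX in each sort, as for 14.0% of 14459 genes tested over all sorts, and its PTX males lay above every vehicle male in both fibroblasts and keratinocytes, as for 0.118% of them (17 genes). The rule for that last share follows the pattern of this gene, so the share is description only. It leaves out the immune cells, where the groups overlapped, and the vehicle females, which overlapped PTX in fibroblasts. A contrast over all 35 libraries, the mean PTX effect over the 3 sorts, was added after these values were seen. Its p-values do not allow for that choice, and its alternatives below reuse the same libraries, so they are description only. By this contrast Cdkn1a rose by 1.15 ± 0.31 on the log2 scale (SE; adjusted p = 0.0156, edgeR), where 4.20% of all genes were called higher. The mean for Phlda3 was -2.61 ± 0.73 (adjusted p = 0.0240) and that for Bmf -4.29 ± 1.36 (adjusted p = 0.0488). By this contrast 6.16% of all genes were called in either direction. Neither value shows a fall in each sort. Phlda3 was at -8.09 for the immune sort alone, and its 0.71 (fibroblasts) and -0.69 (keratinocytes) were not called. Bmf was at -9.60 with immune libraries and, uncalled, at -7.79 with fibroblasts. It had too few reads to be tested in the keratinocyte sort. With both vehicle groups as reference, Phlda3 stayed called (-2.14 ± 0.66, adjusted p = 0.0337, edgeR) and Bmf did not (-3.67 ± 1.23, adjusted p = 0.0547). Against both vehicle groups together the mean effect on Cdkn1a was 1.06 ± 0.25 (adjusted p = 0.00358), and against vehicle females 0.96 ± 0.29 (adjusted p = 0.0434). It stayed called without any 1 of the 23 libraries compared, with an adjusted p of at most 0.0443, but not by limma voom (1.08 ± 0.43; adjusted p = 0.213). No pair of sorts differed in the Cdkn1a effect by the test of that difference, with adjusted p-values of 0.513 for immune cells minus fibroblasts, 0.323 for immune cells minus keratinocytes and 0.861 for fibroblasts minus keratinocytes. In that last pair none of the 10 genes was called, where 3.31% of all genes were called.

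**Figure D3:**
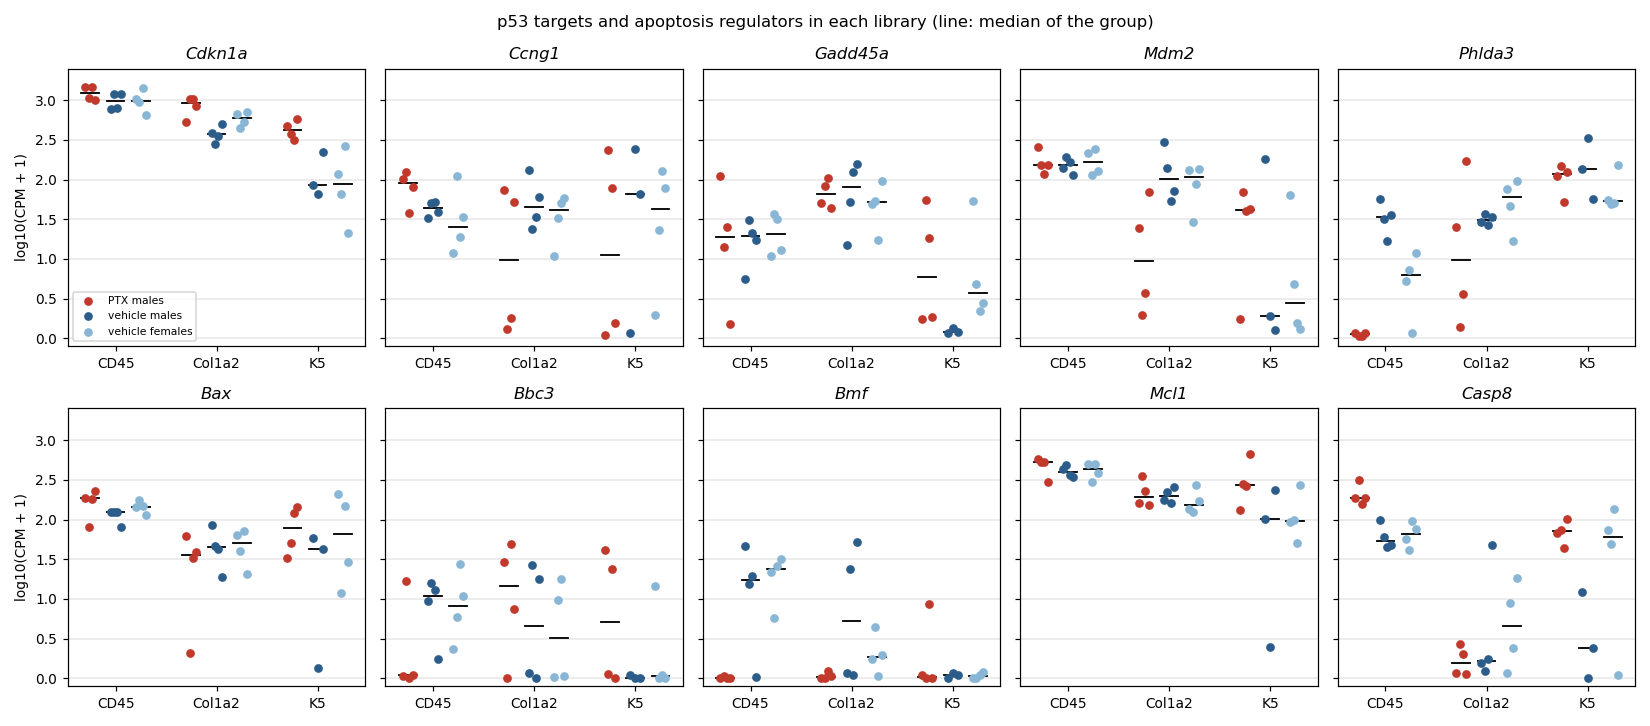
Level of each gene in each of the 35 libraries as log10(CPM + 1), with PTX males left of vehicle males and vehicle females within each sort; lines are group medians. Cdkn1a is high and tight in immune cells and fibroblasts, whereas Phlda3 and Bmf lie at the bottom of the axis in all 4 PTX immune libraries.

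Ccng1 encodes cyclin G1, a p53 target that recruits a phosphatase to MDM2. Its immune-cell values were 101, 124, 37.3 and 80.0 CPM in the PTX libraries, against 31.8, 49.5, 50.7 and 38.2 CPM in vehicle males. PTX library 3 fell among the vehicle males and the other 3 lay above them, and the log2 fold change of 1.01 ± 0.73 (SE, n = 4 each) had an adjusted p of 0.595 by edgeR. In fibroblasts PTX libraries 2 and 3 had 3 and 10 counts and the other 2 had 72.5 and 51.0 CPM, against 23.1 to 132 CPM in vehicle males. In keratinocytes Ccng1 spanned 0.0971 to 232 CPM within PTX and 0.175 to 244 CPM within vehicle males, and the ranges overlapped over most of their length.

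Gadd45a encodes a stress protein that binds p21 and the MEKK4 kinase. In keratinocytes it measured 0.777, 53.9, 17.5 and 0.854 CPM in the PTX libraries, against 0.175, 0.361 and 0.186 CPM (2 counts each) in vehicle males. Vehicle female 1 had 53.3 CPM and the other 3 females 1.19 to 3.91 CPM. The PTX and male vehicle groups did not overlap, as for 9.15% of all genes in this direction, yet 2 PTX libraries were under 1 CPM and vehicle female 1 came close to the PTX maximum. The log2 fold change of 6.17 ± 3.08 (SE, n = 4 and 3) had an adjusted p of 0.367 by edgeR and of 0.00434 by DESeq2. The immune libraries had 112, 13.2, 24.1 and 0.511 CPM with PTX, against 4.60 to 30.0 CPM in vehicle males, and the sign of the change turned without PTX library 1. In fibroblasts it lay between 42.8 and 105 CPM with PTX and between 13.9 and 157 CPM in vehicle males.

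Mdm2 encodes the ubiquitin ligase that degrades p53 and is itself a p53 target. The PTX immune libraries had 260, 153, 115 and 150.2 CPM, against 140, 194, 168 and 112 CPM in vehicle males. The groups overlapped, with a log2 fold change of 0.14 ± 0.35 (SE, n = 4 each; adjusted p = 0.940, edgeR). In fibroblasts it measured 23.3, 0.987, 2.72 and 69.3 CPM in the PTX libraries, against 293, 139, 52.3 and 71.9 CPM in vehicle males. Only PTX library 4 reached into the vehicle range, and the log2 fold change of -2.53 ± 1.11 had an unadjusted p of 0.0347 and an adjusted p of 0.526 by edgeR. The means of Mdm2 and Cdkn1a therefore differed in opposite directions in fibroblasts, neither past the threshold. In keratinocytes 1 vehicle male had 181 CPM and the other 2 under 1 CPM, against 0.777 to 69.4 CPM with PTX.

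Phlda3 encodes a small pleckstrin-homology protein, a p53 target that competes with AKT for membrane lipids. In immune cells it had 2, 1, 1 and 2 counts in the PTX libraries, at most 0.170 CPM, against 55.5, 30.9, 15.9 and 34.6 CPM in vehicle males. Vehicle females had 4.22, 6.36, 0.182 and 10.8 CPM. All 4 PTX libraries lay below all 8 vehicle libraries, as did 3.51% of all genes, and the exact permutation test against vehicle males gave p = 0.0286, the smallest that 4 against 4 allows (two-sided; 30 such tests were run over genes and sorts). The separation from the females rests on 3 counts in vehicle female 3, and on the scale of all 35 libraries PTX library 4, at 0.187 CPM, lay just above that female, at 0.182 CPM. The edgeR log2 fold change was -8.09 ± 1.56 (SE, n = 4 each; adjusted p = 0.0131). With so few reads this value depends on the prior count of the fit. The counts themselves, 6 against 2661, give a vehicle level 303-fold the PTX level, with an exact 95% interval of 139 to 825 that covers counting error only. Against vehicle females the fitted change was -5.43 and did not pass (adjusted p = 0.0681).

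The 2 vehicle groups of immune cells did not overlap in Phlda3 either. Females averaged 5.39 ± 4.42 CPM and males 34.2 ± 16.3 CPM (SD, n = 4 each), with a log2 difference of -2.66 ± 1.21 (SE; unadjusted p = 0.0452, not past the adjusted threshold, edgeR), and 6.98% of all genes did not overlap between these groups. Fibroblast, endothelial and pericyte marker sums were likewise highest in the vehicle males, and the endothelial and pericyte sums were, like Phlda3, lowest with PTX, and vehicle fibroblasts had 15.9 to 96.2 CPM of Phlda3 on their own scale. In fibroblasts Phlda3 measured 24.3, 0.395, 2.64 and 173 CPM in the PTX libraries, against 27.9, 35.8, 25.9 and 32.9 CPM in vehicle males. The 4 vehicle males agreed closely and the 4 PTX libraries spread widely around them (log2 fold change 0.71 ± 1.34; adjusted p = 0.995, edgeR). In keratinocytes all 11 libraries had between 48.5 and 333 CPM, and the fold change was -0.69 ± 1.14 (adjusted p = 0.971). The PTX effect on Phlda3 in immune cells differed from that in fibroblasts by -8.62 ± 2.05 (adjusted p = 0.0148, edgeR, where 3.51% of all genes were called). It differed from that in keratinocytes by -7.21 ± 1.82 (adjusted p = 0.0139, where 9.60% of all genes were called). The difference from fibroblasts did not pass without PTX fibroblast library 4 (-6.43; adjusted p = 0.0536), against vehicle females (-5.09; adjusted p = 0.213), by limma voom (adjusted p = 0.252) or with the replicate block (adjusted p = 0.171).

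Bax encodes the pore-forming effector of mitochondrial apoptosis. Its level in the PTX immune libraries was 186, 80.2, 181 and 225 CPM, against 122, 122, 125 and 79.1 CPM in vehicle males. Of 4 PTX libraries, 3 were above every vehicle male and library 2 was not, and the log2 fold change of 0.59 ± 0.35 had an adjusted p of 0.435 by edgeR. In fibroblasts it lay between 1.09 and 61.8 CPM with PTX and between 18.0 and 85.0 CPM in vehicle males. In keratinocytes it lay between 31.7 and 145 CPM with PTX and between 0.361 and 56.7 CPM in vehicle males, while vehicle females reached 209 CPM.

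Bbc3 encodes PUMA, a BH3-only protein that p53 induces. In keratinocytes it measured 40.6, 0.129, 22.7 and 0 CPM in the PTX libraries, against 1, 0 and 0 counts in vehicle males. It was thus above 20 CPM in 2 of 4 PTX libraries, and vehicle female 1 also had 13.4 CPM (log2 fold change 8.42 ± 3.96; adjusted p = 0.328 by edgeR and 0.0350 by DESeq2). In immune cells the PTX libraries had 1 count, 15.6 CPM, 0 and 1 count, against 8.41, 14.8, 11.8 and 0.732 CPM in vehicle males, the reverse pattern. That change was -1.18 ± 1.85 (adjusted p = 0.893). In fibroblasts it was at 0 in PTX library 2 and at 6.48 to 48.9 CPM in the other 3, against 0 to 26.1 CPM in vehicle males.

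Bmf encodes a BH3-only protein held at the cytoskeleton and known for its role in death after detachment. In immune cells it had 0, 1, 0 and 0 counts in the PTX libraries, against 45.7, 14.5, 18.4 and 0.0488 CPM in vehicle males. Vehicle females had 21.1, 4.68, 24.6 and 30.6 CPM. Vehicle male 4, with 1 count, is the library that overlaps PTX, and the other 7 vehicle libraries lay above all 4 PTX libraries. The edgeR log2 fold change was -9.60 ± 2.09 (SE, n = 4 each; adjusted p = 0.0216). The summed counts were 1 against 1510, a vehicle level 1030-fold the PTX level with an exact 95% interval of 185 to 40712. That interval covers counting error only and not the spread among libraries, which in vehicle males ran from 0.0488 to 45.7 CPM. The exact permutation test gave p = 0.0571. Of the marker sums given above, those of endothelial cells and of pericytes and smooth muscle were also lower in the PTX libraries than in both vehicle groups, whereas the fibroblast sums of PTX libraries and vehicle females overlapped. The part of such cells in the Bmf difference was not tested.

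In fibroblasts Bmf had 0, 0, 3 and 1 counts in the PTX libraries, against 2 counts, 22.9 CPM, 2 counts and 50.9 CPM in vehicle males. Vehicle females had 0.0562 to 3.46 CPM. The high values sat in 2 vehicle males, and the log2 fold change of -7.79 ± 2.74 had an adjusted p of 0.468 by edgeR and passed by DESeq2. In keratinocytes Bmf had 1, 0, 95 and 0 counts in the PTX libraries, against 0, 1 and 1 counts in vehicle males. The tested difference between immune cells and keratinocytes was -13.65 ± 3.94 (adjusted p = 0.0292, edgeR). Without the library with 95 counts it was -8.26 (adjusted p = 0.123). Without vehicle male 1, 2 or 3 of the keratinocytes it did not pass either (adjusted p = 0.0720, 0.0764 and 0.0818), at -13.36, -14.63 and -14.05.

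Mcl1 encodes the short-lived guardian that holds BAX and BAK in check. Immune cells held 581, 527, 523 and 293 CPM in the PTX libraries, against 428, 479.5, 366 and 344 CPM in vehicle males. Of 4 PTX libraries, 3 exceeded every vehicle male, with a log2 fold change of 0.25 ± 0.25 (adjusted p = 0.776, edgeR). In fibroblasts it lay between 151 and 355 CPM with PTX and between 162 and 257 CPM in vehicle males (log2 fold change 0.13 ± 0.46). In keratinocytes it measured 132, 281, 265 and 665 CPM in the PTX libraries, against 101, 1.44 and 234 CPM in vehicle males, and the change of 1.58 ± 1.13 had an adjusted p of 0.682.

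Casp8 encodes the initiator caspase of death receptors, which also restrains necroptosis. In immune cells it measured 185, 316, 155 and 185 CPM in the PTX libraries, against 97.7, 59.4, 43.9 and 47.5 CPM in vehicle males. Vehicle females had 55.9, 39.7, 95.03 and 75.5 CPM. All 4 PTX libraries lay above all 8 vehicle libraries, as did 1.38% of all genes, and the 2 vehicle groups overlapped each other. The means were 210.2 ± 71.9 CPM with PTX and 62.1 ± 24.6 CPM in vehicle males (SD, n = 4 each), a log2 fold change of 1.76 ± 0.42 (SE; adjusted p = 0.0301, edgeR). The call was lost in 4 of the 8 fits that left out 1 library (without vehicle male 2, 3 or 4 or PTX library 2; adjusted p up to 0.0992), while the fold change stayed between 1.504 and 2.014. Ptprc averaged 639 ± 156 CPM with PTX and 481 ± 99.0 CPM in vehicle males (log2 fold change 0.41 ± 0.24), beside 1.76 for Casp8. The 8 mast cell markers had a median log2 fold change of 1.5995, with 6 called higher. Their sums in vehicle females overlapped those with PTX. The part of mast cells in the Casp8 difference was not tested. Against vehicle females Casp8 had an adjusted p of 0.0650.

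In keratinocytes Casp8 measured 67.5, 72.0, 43.0 and 101 CPM in the PTX libraries, against 11.3, 0 and 1.39 CPM in vehicle males. The PTX libraries lay above every vehicle male, but vehicle females had 72.6, 48.5, 133 and 0.0998 CPM and covered the PTX range (log2 fold change 4.06 ± 2.37; adjusted p = 0.498, edgeR). In fibroblasts the PTX libraries had 0.159, 1.68, 1.04 and 0.134 CPM, against 0.535, 0.248, 0.769 and 46.4 CPM in vehicle males. The fitted change of -3.99 ± 2.26 came from vehicle male 4, and without it the sign turned to 0.52. The PTX effect in immune cells minus that in fibroblasts was 5.86 ± 1.91 and did not pass (adjusted p = 0.0831).

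Between vehicle females and vehicle males none of the 10 genes passed edgeR's test in any sort, nor limma voom's, where 0.354% (immune cells), 0.0184% (fibroblasts) and 0.00914% (keratinocytes) of all genes were called. Phlda3 in immune cells was the 1 gene at an unadjusted p under 0.05. Across the vehicle libraries of both sexes, on the scale of all 35 libraries, Cdkn1a lay between 647 and 1434 CPM in immune cells, between 327 and 803 CPM in fibroblasts and between 16.5 and 213 CPM in keratinocytes. The first 2 ranges overlapped and the keratinocytes lay below both. Mcl1 had the same order of means (412, 225 and 97.7 CPM), with overlap between neighbours. Phlda3 had the opposite order, 97.0 ± 88.3 CPM in keratinocytes, 52.2 ± 31.1 CPM in fibroblasts and 19.6 ± 18.8 CPM in immune cells (SD, n = 7, 8 and 8), all overlapping. Bmf was under 1 CPM in all 7 vehicle keratinocyte libraries, in 4 of 8 fibroblast libraries and in 1 of 8 immune libraries.

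Several of these genes ranged from under 1 CPM to high levels within a group. A gene was counted as such where its lowest library was under 1 CPM and its highest over 20 CPM, among genes that averaged 5 CPM or more in that group. In PTX fibroblasts this held for 4 of 8 such genes (Mdm2, Ccng1, Bbc3 and Phlda3), beside 56.3% of all genes, and in vehicle male fibroblasts for 3 of 10 (Bbc3, Casp8 and Bmf), beside 43.1%. In PTX keratinocytes it held for 4 of 9 (Mdm2, Ccng1, Bbc3 and Gadd45a), beside 51.3%, and in vehicle male keratinocytes for 3 of 6 (Mdm2, Ccng1 and Bax), beside 57.2%. In PTX immune cells it held for 1 of 7 (Gadd45a), beside 53.9%, and in vehicle male immune cells for 1 of 10 (Bmf), beside 5.70%. The shares among the 10 genes were thus at or below those of all genes in the PTX groups. Cdkn1a and Mcl1 were above 1 CPM in all 35 libraries.

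**Figure D4:**
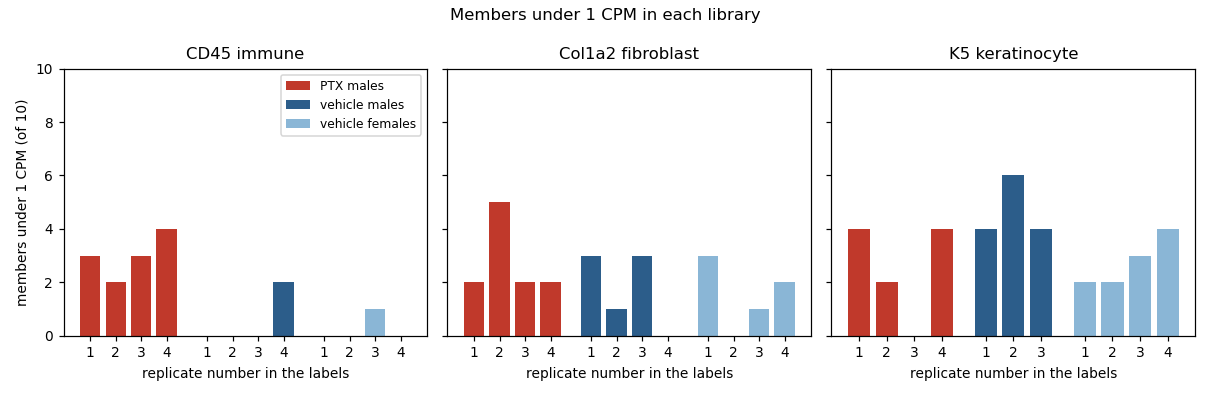
Number of the 10 genes under 1 CPM in each library, by replicate number, with PTX males left of vehicle males and vehicle females. PTX immune libraries had 2 to 4 such genes, against 0 to 2 in vehicle males and 0 or 1 in vehicle females, and PTX fibroblast library 2 had 5.

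Of 26 other p53 targets tested in immune cells, 1 rose and none fell. It was Gdf15, a stress-induced cytokine of the TGF-beta family, with 462 ± 279 CPM with PTX and 89.3 ± 8.51 CPM in vehicle males (SD, n = 4 each; log2 fold change 2.37 ± 0.58, adjusted p = 0.0333, edgeR). That call was lost without any 1 of 6 of the 8 libraries (every vehicle male and PTX libraries 3 and 4; adjusted p up to 0.0931). Vehicle females averaged 204 CPM, and against them the fold change was 1.18 (adjusted p = 0.334). None of 21 passed in fibroblasts, with 3 at an unadjusted p under 0.05; among them was Rrm2b, a ribonucleotide reductase subunit, at -7.69 ± 2.60 (adjusted p = 0.468). In keratinocytes 1 of 27 fell. It was Perp, a tetraspan protein of desmosomes that p63 also drives in epidermis, with 906 ± 259 CPM with PTX and 5052 ± 612 CPM in vehicle males (log2 fold change -2.48 ± 0.25, adjusted p = 1.27e-05). Of 8 basal keratinocyte markers 4 fell beside it, and their sum lay between 3850 and 13347 CPM with PTX, against 23900 to 32142 CPM in vehicle males. The list medians were 0.50, 0.08 and 0.39, beside 0.10, 0.08 and 0.07 for all genes. Limma voom called neither Gdf15 (adjusted p = 0.202) nor Perp (adjusted p = 0.929).

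None of the regulators and relatives of p53 was called by edgeR, of 10 tested for immune cells, 8 for fibroblasts and 12 for keratinocytes, with 2, 1 and 3 at an unadjusted p under 0.05 and list medians of -1.002, 0.97 and -0.60. Trp53, which encodes p53 itself, averaged 241 ± 87.1 CPM in PTX fibroblasts and 53.2 ± 36.0 CPM in vehicle males (log2 fold change 2.18 ± 0.82, adjusted p = 0.474, edgeR). These groups did not overlap, as for 1.38% of all genes in this direction. In immune cells it averaged 129 ± 66.4 CPM with PTX and 59.3 ± 20.7 CPM in vehicle males (1.12 ± 0.47, adjusted p = 0.184). The lowest p of the list there belonged to Trp63, which went the other way (-10.24 ± 3.55, adjusted p = 0.122, edgeR). In keratinocytes the lowest p-values belonged to Atr (-10.78 ± 3.30, adjusted p = 0.153) and Trp73 (-7.46 ± 3.38, adjusted p = 0.306), both negative. For all 3 the PTX and vehicle male libraries overlapped. Among 6 relatives of the listed genes in immune cells, Gadd45b rose and Ccng2 fell, neither of them by limma voom (adjusted p = 0.167 and 0.232). Gadd45b, a sister of Gadd45a, had 992 ± 358 CPM with PTX and 437 ± 40.1 CPM in vehicle males (log2 fold change 1.18 ± 0.24, adjusted p = 0.0174). Ccng2, which encodes cyclin G2, had 0.174 ± 0.119 CPM with PTX and 10.2 ± 0.283 CPM in vehicle males (-5.81 ± 1.38, adjusted p = 0.0293). Gadd45b and Ccng2 each stayed called in 5 of 8 fits that left out 1 library and in 5 of 8 other alternatives. In keratinocytes Gadd45g had 997 ± 473 CPM with PTX and 26.7 ± 24.8 CPM in vehicle males (5.22 ± 1.30, adjusted p = 0.0508). It was called under 7 of 9 alternatives (adjusted p from 0.00249 to 0.180 over all 9; not with RLE scaling or by limma voom) and under none of 7 fits that left out 1 library. None of 6 relatives passed there or in fibroblasts, with 4 and 0 at an unadjusted p under 0.05, and the medians over the 3 sorts were 0.11, 0.43 and 4.78, with keratinocytes last.

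Of the other BH3-only genes and BAX partners, 1 of 7 tested in immune cells fell, and none of 3 in fibroblasts or 5 in keratinocytes was called (0 and 1 at an unadjusted p under 0.05; medians 0.92, 0.81 and -1.56). It was Bok, a BAX relative, with 0.0570 ± 0.0388 CPM with PTX and 20.6 ± 12.3 CPM in vehicle males (-8.32 ± 1.92, adjusted p = 0.0260 by edgeR and 0.215 by limma voom). Vehicle females also averaged 0.0898 CPM, and PTX males differed from them by -0.58 (adjusted p = 0.964). The Bok call held in 4 of 8 fits that left out 1 library and in 4 of 8 other alternatives. None of the guardians and survival genes was called, with 4 of 10 tested in immune cells, 0 of 7 in fibroblasts and 3 of 9 in keratinocytes at an unadjusted p under 0.05 (medians 0.89, -0.48 and 1.45). Birc2, an inhibitor of apoptosis, averaged 104 ± 62.8 CPM in PTX immune cells and 17.6 ± 8.61 CPM in vehicle males (2.57 ± 0.73, adjusted p = 0.0559). None of the caspase and death receptor genes was called either, with 1 of 15, 1 of 13 and 2 of 11 at an unadjusted p under 0.05 (medians -0.16, 0.54 and 0.56). Ripk1, the kinase at which caspase 8 and necroptosis meet, averaged 126 ± 85.3 CPM in PTX keratinocytes and 0.120 ± 0.0522 CPM in vehicle males (9.90 ± 2.66, adjusted p = 0.0816), and Fas, the death receptor, 136 ± 103 CPM in PTX fibroblasts and 30.5 ± 8.43 CPM in vehicle males (2.15 ± 0.86, adjusted p = 0.484).

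**Figure D5:**
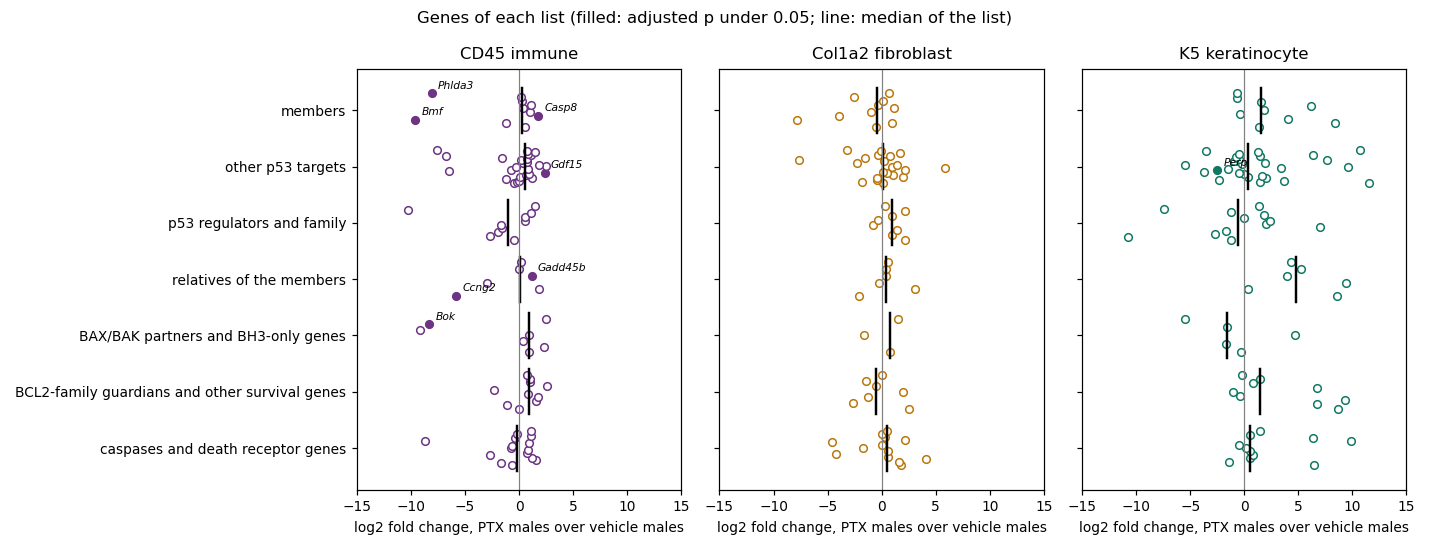
Log2 fold change of every tested gene of each list, PTX males over vehicle males, in the 3 sorts; filled points passed an adjusted p of 0.05 and black lines are list medians. Filled points outside the 10 genes are Gdf15, Gadd45b, Ccng2 and Bok in immune cells and Perp in keratinocytes.

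Some of the 16 immediate early and stress genes, a class that cell dissociation is known to induce, were called in immune cells and keratinocytes. In immune cells 5 of 16 rose, where 0.956% of all genes did, and the sum of the list lay between 31402 and 39837 CPM with PTX, 19033 and 22898 CPM in vehicle males and 16868 and 24726 CPM in vehicle females. Among them Nr4a1 rose by 1.16 ± 0.17, Jun by 1.30 ± 0.26 and Dnajb1 by 1.41 ± 0.34 on the log2 scale (adjusted p = 0.00494, 0.0153 and 0.0301, edgeR), beside the rise of Casp8. Of 8 fits that left out 1 library, Nr4a1 stayed called in 8, Jun in 7 and Dnajb1 in 2. Of 8 other alternatives, they stayed called in 7, 6 and 4. In keratinocytes 4 of 16 rose, where 1.15% of all genes did, and the sum lay between 13027 and 25261 CPM with PTX and between 1968 and 4413 CPM in vehicle males, with 2649 to 7140 CPM in vehicle females. They were Fos at 2.83 ± 0.51, Zfp36 at 2.90 ± 0.60, Junb at 2.34 ± 0.50 and Jun at 2.38 ± 0.52 (adjusted p = 0.00470, 0.0138, 0.0175 and 0.0212, edgeR), in the libraries with the higher Cdkn1a. Of 7 fits that left out 1 library, Fos stayed called in 7, Zfp36 in 4, Junb in 2 and Jun in 2. Of 9 other alternatives, Fos, Zfp36 and Junb stayed called in 8 each and Jun in 7. In fibroblasts none of 16 was called (3 at an unadjusted p under 0.05), and the sums overlapped, at 39823 to 56515 CPM with PTX and 39322 to 53540 CPM in vehicle males. The lowest p among them there belonged to Junb (0.47 ± 0.17; unadjusted p = 0.0146) and then to Atf3 (-0.72 ± 0.28; unadjusted p = 0.0186). The part of these genes in the other results was not tested.

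The gene whose pattern over the 35 libraries was most like that of Cdkn1a, among 12845 genes that averaged 5 CPM or more in some group, was Plod1, a collagen lysyl hydroxylase (Pearson r = 0.915 of log2(CPM + 1)). Within single sorts r was 0.19 (immune cells), 0.29 (fibroblasts) and 0.85 (keratinocytes), so the likeness lay mostly in the order of the sorts and in the keratinocytes. Casp8 was most like Stk17b (0.839), with r of 0.94 within keratinocytes, 0.27 within immune cells and 0.17 within fibroblasts. Phlda3 was most like Arhgap32 (0.809), with r of 0.78, 0.83 and 0.40 within immune cells, fibroblasts and keratinocytes. Bmf was most like Nlrc3 (0.725), with r of 0.93 within immune cells, 0.10 within fibroblasts and -0.04 within keratinocytes. These values describe libraries that share sort, sex and treatment.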

How the data were processed

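Stranded messenger RNA libraries of cells sorted from paw skin were sequenced, per the labels' protocols. Those protocols also name hind paw punch biopsies, whereas the design describes sorted suspensions. The submitters' processing notes name bcl2fastq, TopHat2, the build mm9 and HTSeq as the authors' tools (versions, annotation and strand use not given in the sources used here), and reads of overlapping or antisense genes cannot be told apart. The deposited values are whole-number counts, 1 table per library. HTSeq's summary lines stayed out of library sizes and tests: over libraries, 34.9 to 60.9% of reads had no unique place and 10.4 to 31.0% lay in no gene.

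The fits, 1 per sort, used edgeR 4.0.16 in R 4.3.3 (filterByExpr; TMM; robust glmQLFit; 1 coefficient per group; two-sided quasi-likelihood test; Benjamini-Hochberg over all tested genes at 0.05); differences between sorts came from fits of both. The fit was tested on simulated data. Alternatives were RLE scaling, no filter, DESeq2 1.42.0, limma 3.58.1 voom, other references, a replicate block and leaving out each library. The genes and lists were chosen with earlier results of these data known. All 10 genes are described; of each list, called genes (up to 4 with the lowest p) or up to 2 uncalled ones are named. Hspa1a, called in immune cells, is not given because it shares reads with Hspa1b. Promoters are RefSeq's, in GRCm38.p6, another build than the counts, and serve for sequence only. No libraries of the same group were duplicates: within groups, counts of every pair (51 pairs) differed beyond sampling noise. Pairs from different groups were not compared in this way.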

Additional observations from a re-analysis of the deposited data

Results flagged for a closer look

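Over the 10 genes and the groups of 4 libraries there were 80 sets of values, of which 74 reached 5 CPM in some library. In 9 of these (12.2%) 1 library lay far from the other 3 by Dixon's criterion. Chance gives that in about 1 of 20 well-behaved sets, and over all tested genes 17.9% of such sets met it, so the share among the 10 genes was not above that of all genes. Mdm2 had 62.96 CPM in vehicle female 1 of the keratinocytes, against 0.299 to 3.91 CPM in the other 3. The same library stood apart in Bbc3, with 13.4 CPM against 0 to 0.108 CPM, and in Gadd45a, with 53.3 CPM against 1.19 to 3.91 CPM. Bax had 79.1 CPM in vehicle male 4 of the immune cells, against 122 to 125 CPM in the others. Bbc3 had 15.6 CPM in PTX library 2 of the immune cells, against 0 to 0.0852 CPM. Phlda3 had 173 CPM in PTX library 4 of the fibroblasts, against 0.395 to 24.3 CPM, and 154 CPM in vehicle female 4 of the keratinocytes, against 48.5 to 54.7 CPM. Casp8 had 46.4 CPM in vehicle male 4 of the fibroblasts, against 0.248 to 0.769 CPM, and that library alone gave the negative fold change there. Bmf had 7.60 CPM in PTX library 3 of the keratinocytes, against 0 to 0.0971 CPM.

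The PTX effect differed between sorts by a test of the difference for Phlda3, by -8.62 between immune cells and fibroblasts and by -7.21 between immune cells and keratinocytes, and for Bmf, by -13.65 between immune cells and keratinocytes. The Bmf difference was -8.26 without PTX keratinocyte library 3. It did not pass without that library or without any 1 vehicle male of the keratinocytes (adjusted p = 0.0720 to 0.123, edgeR). The Phlda3 difference between immune cells and fibroblasts held with RLE scaling (adjusted p = 0.0116) but not against vehicle females, by voom, with the replicate block or without PTX fibroblast library 4 (adjusted p = 0.0536 to 0.252).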

How the results depend on the processing

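Of the 10 genes, 3 were called in immune cells by the main analysis, 0 by voom, 1 with the replicate block, 1 against vehicle females and 1 to 3 leaving out a library (1 without vehicle male 3). Casp8 also lost its call without the filter (adjusted p = 0.0539). Of all genes 669 were called there, 407 without the filter, 2275 by DESeq2, 38 by voom, 148 with the block, 213 against females and 230 to 954 leaving out a library. In fibroblasts DESeq2 called 1 of the 10; of all genes 2 were called, 1 with RLE scaling, 4 without the filter, 648 by DESeq2, 0 by voom, 1 from only the groups compared and 0 to 4 leaving out a library. In keratinocytes DESeq2 called 2 of the 10; of all genes 159 were called, 1739 by DESeq2, 385 by voom, 586 against both vehicle groups and 84 to 121 leaving out a library. For immune cells minus fibroblasts, 1 gene was called and 0 against females, by voom or with the block. For immune cells minus keratinocytes, 2 were called, 1 by voom or with the block and 1 to 3 leaving out a library.

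Directions turned only among uncalled values. In immune cells Mdm2 was -0.14 by voom and -0.041 against females (-0.15 to 0.29 leaving out a library), and Gadd45a -0.23 by voom (-0.54 to 1.36). In fibroblasts Phlda3 was -0.69 by voom, -1.21 with the block and -0.22 against females (-1.73 to 1.13), Gadd45a 0.014 with the block, 0.057 against both and 0.41 against females (-0.65 to 0.18), Mcl1 -0.14 by voom (-0.13 to 0.26) and Casp8 -4.64 to 0.52. In keratinocytes Mdm2 was 1.78 by voom, 5.13 with the block, 0.24 against both and 1.16 against females (-1.28 to 6.03), Ccng1 0.49 by voom, 0.016 against both and 0.44 against females (-1.96 to 1.21), Bax -0.19 and Phlda3 0.49 against females (Phlda3 -1.04 to 0.17 leaving out a library). Casp8 in immune cells minus keratinocytes was 1.64 against females. The causes were not tested. Same-numbered libraries did not deviate together (correlations -0.044 to 0.048; 3 of 11 correlated best with their own number), so the block shares only a number. The fit without the shallow keratinocyte library was added after seeing the data and called 0 of the 10.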
